A study of Rattus norvegicus with 30 samples.

Results

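The genes described here are 9 that move chloride across membranes, 3 SLC12 cation-chloride cotransporters (Slc12a2, Slc12a5 and Slc12a7) and 6 CLC channels and exchangers (Clcn2, Clcn3, Clcn4, Clcn5, Clcn6 and Clcn7). They were taken by gene symbol from a table of 32883 rat genes, and each symbol matched 1 row. All 9 passed the filter on low values (5 or more libraries with a normalized count of 10 or more), as did 12911 of the 20634 genes with any read. RNA was sequenced from Sprague Dawley rat embryonic cortical neuron cultures that had received AAV9 carrying human αSyn 3K, an α-synuclein with 3 glutamate-to-lysine changes, or the empty vector (EV) on day 5 in vitro. Each vector was sampled 6, 12 and 19 d after transduction in 5 libraries, which gave 6 groups and 30 libraries: EV at days 6, 12 and 19, and 3K at days 6, 12 and 19. Sample titles of all 6 groups also carry PBS. The αSyn 3K insert was placed under the CAG promoter, which is not restricted to neurons, and every comparison here sets a culture with vector against another culture with vector. The labels do not say whether the 5 replicates of a group came from separate cultures or animals, so p-values measure the spread between these libraries, which may be technical.

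Whether GABA and glycine excite or inhibit a neuron depends on its internal chloride, which NKCC1 (Slc12a2) raises by carrying chloride in with sodium and potassium, and KCC2 (Slc12a5) lowers by carrying chloride out with potassium. In developing cortex KCC2 is known to become more abundant as neurons mature, and the WNK kinases acting through SPAK and OSR1 switch NKCC1 on and KCC2 off by phosphorylation. Among the CLC proteins, ClC-2 (Clcn2) is a chloride channel of the plasma membrane, while ClC-3 to ClC-7 are found on endosomes, lysosomes and synaptic vesicles, where they exchange chloride for protons and work beside the V-ATPase proton pump.

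Libraries held between 4747019 and 7035869 reads of genes. The αSyn 3K transcript had a mean normalized count of 4203, 8650 and 24755 in 3K at days 6, 12 and 19 and of 135, 159 and 211 in EV, and every 3K library exceeded every EV library of its day. A normalized count is the number of reads of a gene divided by a size factor of the library, and is not divided by transcript length, so levels are not compared between genes. Of 9 neuron markers all were tested, and none was listed at 0 in a library. Astrocyte and oligodendrocyte lineage markers were also found, with 9 of 9 tested in each list. Of the latter, Sox10, Mog and Mag were low in some libraries, with lowest normalized counts of 8.28, 4.73 and 1.22. None of 7 microglia markers found in the table passed the filter. Of 3 endothelial and mural cell markers found, Cldn5 was at 0 in all 30 libraries and Flt1 in 12. Pdgfrb passed the filter, with normalized counts from 12.9 to 66.3. In such mixed cultures, fewer cells of a type and less RNA per cell cannot be told apart.

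Promoter sequence is given for the 4 genes that differed between vectors at day 19 and for Clcn6, which shares a motif with Clcn7. The windows are from RefSeq on build GRCr8, run 5′ to 3′ on the strand of the gene from 250 bases before to 50 bases after its start, and carry in capitals each match to CACGTG, to GTCACGTG and to TGACGTCA on either strand. CACGTG is the E-box, GTCACGTG is the core of the element that TFEB binds at lysosomal genes and contains CACGTG, and TGACGTCA is the cAMP response element. Slc12a2 is shown at chr18:53546083-53546382, plus strand, Slc12a5 at chr3:174115583-174115882, plus strand, Clcn3 at chr16:34137754-34138053, plus strand, Clcn6 at chr5:163748149-163748448, minus strand, and Clcn7 at chr10:14656011-14656310, plus strand.
Slc12a2: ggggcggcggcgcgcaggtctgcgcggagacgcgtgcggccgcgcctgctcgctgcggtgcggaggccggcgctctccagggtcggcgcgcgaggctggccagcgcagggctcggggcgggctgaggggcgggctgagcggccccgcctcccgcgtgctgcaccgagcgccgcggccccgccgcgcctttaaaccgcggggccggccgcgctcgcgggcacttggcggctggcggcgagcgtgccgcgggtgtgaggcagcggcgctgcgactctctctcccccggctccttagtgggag
Slc12a5: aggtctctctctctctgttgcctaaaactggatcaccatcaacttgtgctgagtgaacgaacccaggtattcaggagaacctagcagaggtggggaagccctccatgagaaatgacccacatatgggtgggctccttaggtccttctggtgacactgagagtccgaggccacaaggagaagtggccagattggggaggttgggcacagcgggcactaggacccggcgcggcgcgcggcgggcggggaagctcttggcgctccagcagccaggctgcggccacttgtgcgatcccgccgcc
Clcn3: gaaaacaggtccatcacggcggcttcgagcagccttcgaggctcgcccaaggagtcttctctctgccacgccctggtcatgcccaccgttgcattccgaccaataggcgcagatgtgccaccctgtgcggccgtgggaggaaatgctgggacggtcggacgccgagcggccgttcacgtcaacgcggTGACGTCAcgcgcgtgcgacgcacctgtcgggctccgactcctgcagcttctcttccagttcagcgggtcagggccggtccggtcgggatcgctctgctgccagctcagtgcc
Clcn6: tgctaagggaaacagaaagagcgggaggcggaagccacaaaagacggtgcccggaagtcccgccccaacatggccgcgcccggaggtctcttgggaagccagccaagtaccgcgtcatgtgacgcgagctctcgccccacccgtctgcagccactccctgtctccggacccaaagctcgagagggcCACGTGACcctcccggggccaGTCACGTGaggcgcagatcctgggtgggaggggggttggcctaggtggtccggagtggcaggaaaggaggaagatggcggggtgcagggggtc
Clcn7: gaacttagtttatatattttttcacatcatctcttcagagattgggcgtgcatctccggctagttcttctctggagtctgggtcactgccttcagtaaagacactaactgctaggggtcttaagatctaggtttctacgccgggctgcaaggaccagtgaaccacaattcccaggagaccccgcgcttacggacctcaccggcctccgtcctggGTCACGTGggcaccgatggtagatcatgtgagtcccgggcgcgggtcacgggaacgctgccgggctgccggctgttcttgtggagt
All 9 genes matched a RefSeq promoter, Clcn3 and Clcn5 with 2 windows each, of which the first is shown for Clcn3. GTCACGTG was found in Clcn7 (1 match), in Clcn6 (2 matches) and in Slc12a7 (1 match, window not shown), against 1.85% of 33469 rat promoter windows of the same length. CACGTG, held by 6.42% of windows, was found without the longer motif in Clcn4 alone. TGACGTCA, held by 1.83% of windows, was found in the first window of Clcn3. A match is only a run of letters, and no match says only that these letters are not in the window. Of the genes with GTCACGTG, Clcn7 rose and Clcn6 fell with age in EV, the latter a call that several alternatives ended, as given with each gene. Slc12a7 did not pass from day 6 to day 19 in EV (-0.35, limma adjusted p = 0.36).

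At day 6, 0 of the 9 genes passed for 3K against EV in limma with adjustment over all genes tested, and 0 had an unadjusted p under 0.05, beside 0.225% of 12911 genes called. At day 12, 1 of 9 was called, Clcn3, which was higher in 3K, beside 0.434% of all genes. At day 19, 4 of 9 were called, beside 7.86% of all genes. Clcn3 and Slc12a2 were higher in 3K (3.78% of all genes were higher), and Slc12a5 and Clcn7 were lower (4.08% were lower). With libraries scaled to equal totals, 631 genes were higher and 376 lower at day 19, in place of 488 and 527. Libraries of the groups did not overlap at day 19 for 2 of 9, Clcn3 and Slc12a5, beside 6.65% of all genes. The median of the 9 differences at day 19 was 0.026 on the log2 scale and that of all genes tested -0.0031. The test of the difference itself between days was passed by 1 of 9, Clcn3, for day 19 against day 6, where 1.51% of all genes passed. For day 19 against day 12 it was passed by 0 of 9, where 0.542% of all genes passed, and 2 of 9 had an unadjusted p under 0.05, as did 1217 of the 12911 genes. For day 12 against day 6, 0.0% of the genes tested passed in limma, 0 of 12911 with 636 at an unadjusted p under 0.05, and edgeR called 0 and DESeq2 called 4. In that comparison 1 of the 9 had an unadjusted p under 0.05.

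**Figure D1:**
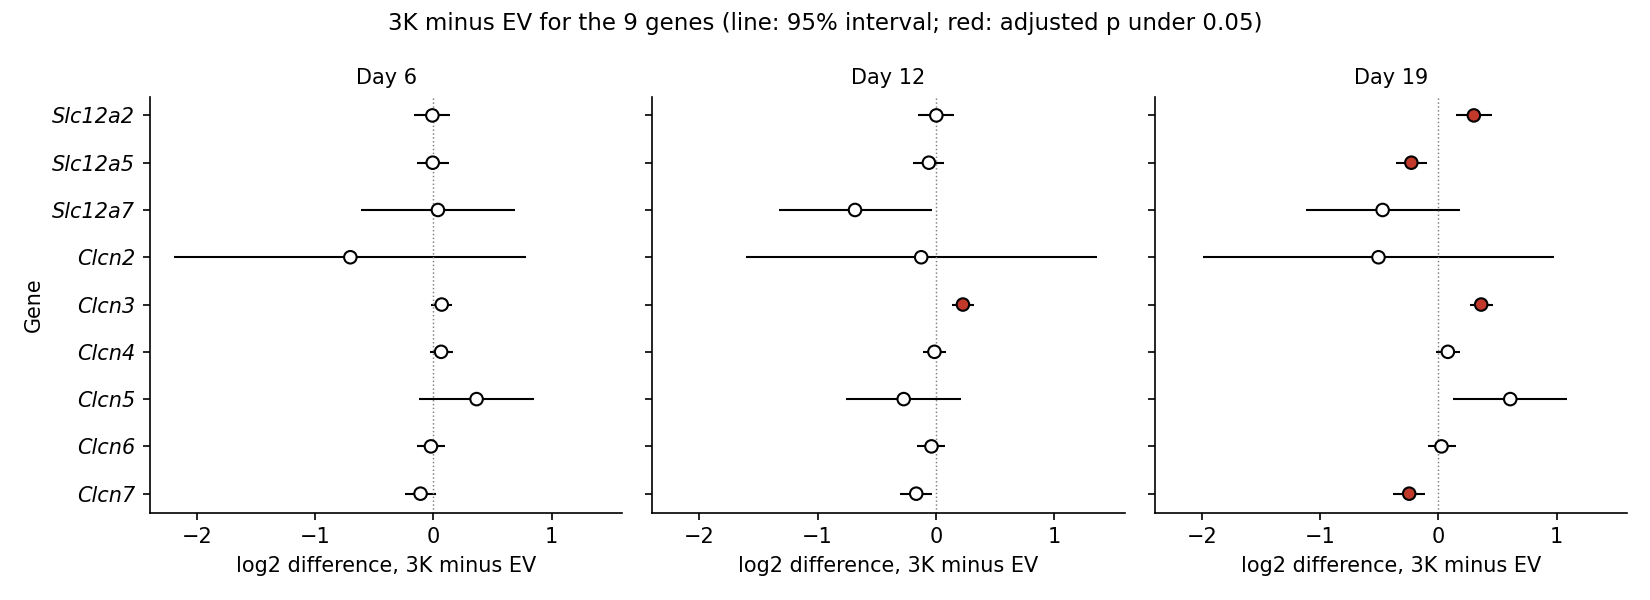
Difference between 3K and EV for each of the 9 genes (rows) at each day (panels), on the log2 scale, with its 95% interval from limma as a line and red points for an adjusted p under 0.05. Red points appear for 1 gene at day 12 and for 4 genes at day 19, and the lines of Clcn2, Clcn5 and Slc12a7 are the widest.

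Culture age was compared within each vector. All cultures received vector on the same day in vitro, so culture age and time after transduction cannot be told apart. From day 6 to day 19 in EV, 3 of 9 rose (Slc12a5, Clcn7 and Clcn3), beside 32.9% of all genes, and 2 of 9 fell (Clcn5 and Clcn6), beside 32.2%. From day 6 to day 12 in EV, 2 rose (Slc12a5 and Clcn7), beside 23.3% of all genes, and 0 fell, beside 21.2%. From day 12 to day 19 in EV, 4 rose (Slc12a5, Clcn7, Clcn3 and Clcn4), beside 23.6%, and 3 fell (Slc12a2, Clcn5 and Clcn6), beside 21.7%. Of these, the Clcn3 step was lost under 3 other settings (adjusted p up to 0.1) and without EV replicate 2 or 5 of day 12 or 1, 3 or 5 of day 19 (up to 0.082). The Clcn6 step was lost without EV replicate 1, 2 or 5 of day 12 or 3 of day 19 (up to 0.075). In 3K, 3 rose from day 6 to day 19 (the same symbols, Slc12a5, Clcn7 and Clcn3), beside 32.2% of all genes, and 2 fell (Clcn5 and Slc12a7), beside 31.3%. Over the shorter steps in 3K, 3 rose (Slc12a5, Clcn7 and Clcn3) and 3 fell (Slc12a7, Clcn4 and Clcn5) from day 6 to day 12, beside 22.3% and 20.1% of all genes. That Clcn3 rise, 0.145 (limma adjusted p = 0.014), was lost with the mitochondrial share as a covariate (adjusted p = 0.079) and without 3K replicate 4 of day 6 (adjusted p = 0.064). From day 12 to day 19, 4 rose (Slc12a5, Clcn7, Clcn3 and Clcn4) and 0 fell, beside 23.3% and 22.5%. The comparisons of EV by age and of 3K with EV share the EV libraries.

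Slc12a2, which codes for the chloride importer NKCC1, was higher in 3K than in EV at day 19, the day of its lowest EV libraries. Its normalized counts in EV were 419, 400.0, 424, 497 and 439 at day 6, 483, 492, 457, 461 and 480.2 at day 12 and 439, 344, 401, 343 and 465 at day 19. In 3K they were 401, 434, 438, 429.7 and 462 at day 6, 413, 509, 514, 450.1 and 501 at day 12 and 473, 509.8, 502, 424 and 532 at day 19. The EV libraries of day 19 were split, with replicates 2 and 4 below every other library of the series. Of the 3K libraries of that day, 4 of 5 lay above the highest EV library, so that the groups overlapped through 3K replicate 4. Means at day 19 were 488 ± 41.5 in 3K against 398 ± 55.1 in EV (SD, n = 5 each), a difference of 0.30 on the log2 scale (SE 0.076, limma adjusted p = 0.011). All 5 3K libraries of day 19 lay above the EV mean. The 3K minus EV differences at days 6 and 12 were -0.008 and 0.004 on the log2 scale, with limma adjusted p = 1 for both. The effect at day 19 exceeded that at day 6 by 0.31 on the log2 scale (SE 0.11, limma adjusted p = 0.17), which did not pass, with a 95% interval from 0.1 to 0.52.

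With age, Slc12a2 fell in EV from day 12 to day 19, with means of 475 ± 15 and 398 ± 55.1 (SD, n = 5 each), by -0.26 on the log2 scale (SE 0.076, limma adjusted p = 0.0052). In 3K the same step gave 0.033 (limma adjusted p = 0.76). From day 6 to day 19 the difference in EV was -0.14 (limma adjusted p = 0.12), which did not pass. It passed with libraries scaled to equal totals and without EV replicate 5 of day 19 (adjusted p as low as 0.025). Over the same days the difference in 3K was 0.17 (limma adjusted p = 0.051), which did not pass. Alternatives were 11 other settings and 30 fits without 1 library, and the 3K difference passed in 13 of them (adjusted p as low as 0.015). Those were DESeq2, the filter of 50, those groups alone and the replicate block, and otherwise fits without 1 library. The difference of the 2 steps from day 12 was 0.30 on the log2 scale (SE 0.11, limma adjusted p = 0.29) and did not pass. The day 19 call of 3K against EV was lost in a fit of those groups alone (limma adjusted p = 0.063) and without EV replicate 4 (adjusted p = 0.051). Without single libraries the difference ranged from 0.25 to 0.36.

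Slc12a5 codes for the chloride exporter KCC2 and is used in the brain mainly by neurons. It had the steepest rise with culture age among the genes of the 9 that passed the test. Clcn2, which did not pass, had a larger log2 difference in 3K (1.46) but a smaller ratio of means (1.395). Its 3K replicate 4 of day 6 had 0 reads. Normalized counts of Slc12a5 in EV were 419, 346, 455, 441 and 405 at day 6, 759, 709.6, 694, 726 and 677 at day 12 and 1027, 1147, 1023, 1082 and 1097 at day 19. In 3K they were 373, 365, 415, 476 and 429 at day 6, 704, 685, 738, 659 and 638 at day 12 and 859, 987, 885, 986 and 874 at day 19. The 3 days did not overlap within either vector, and at day 19 every 3K library lay below every EV library. The mean rose in EV from 413 ± 42.1 to 1075 ± 51.9 (SD, n = 5 each), by 1.38 on the log2 scale (SE 0.067, limma adjusted p = 3.9e-18), a ratio of means of 2.60. In 3K it rose from 412 ± 45 to 918 ± 63.3 (SD, n = 5 each), by 1.16 on the log2 scale (SE 0.067, limma adjusted p = 4.3e-16), a ratio of means of 2.23. The order of the group means was 3K and EV at day 6, which overlapped, then 3K and EV at day 12, which overlapped, then 3K at day 19 and EV at day 19.

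At day 19 the 3K minus EV difference of Slc12a5 was -0.23 on the log2 scale (SE 0.067, limma adjusted p = 0.028), with 0.854 times the EV mean, and all 5 3K libraries lay below the EV mean. At days 6 and 12 it was -0.005 (limma adjusted p = 1) and -0.059 (limma adjusted p = 0.92). The effect at day 19 minus that at day 6 was -0.22 on the log2 scale (SE 0.094, limma adjusted p = 0.29), which did not pass, with a 95% interval from -0.41 to -0.04. The step from day 12 to day 19 was 0.59 in EV and 0.42 in 3K on the log2 scale, and the difference of the steps was -0.17 with limma adjusted p = 0.6. Without any 1 of 6 libraries (EV replicates 2, 4 and 5 and 3K replicates 1, 3 and 5 of day 19) the day 19 call was lost, with adjusted p up to 0.086 and differences from -0.26 to -0.20. It was also lost with libraries scaled to equal totals and with the mitochondrial share as a covariate (adjusted p up to 0.15, smallest difference -0.15).

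Some neuron markers and the share of mitochondrial reads differed between the day 19 groups. Of 9 neuron markers, 0 were higher and 2 were lower in 3K at day 19, Snap25 by -0.20 (limma adjusted p = 0.033) and Slc17a7, the vesicular glutamate transporter VGLUT1, by -0.11 (adjusted p = 0.005). The other 7 did not pass, among them Gad1 and Gad2, which make GABA, with differences of 0.15 (limma adjusted p = 0.12) and 0.12 (adjusted p = 0.34). Rbfox3, Map2, Eno2, Tubb3 and Syt1 had differences of -0.17, -0.15, -0.15, -0.13 and -0.057 (limma adjusted p of at least 0.052). The list median was -0.13. The summed normalized count of the 9 ranged from 27970 to 29400 in EV and from 26070 to 27130 in 3K, so the ranges did not overlap. At day 19 mitochondrial genes took 4.21 ± 0.276% of reads in EV against 4.78 ± 0.297% in 3K (SD, n = 5 each). Of the 9 neuron markers, 5 rose and 2 fell from day 6 to day 19 in EV, beside 32.9% and 32.2% of all genes. Slc17a7 (1.48) and Snap25 (1.415) rose most, Tubb3 (-1.63) and Map2 (-0.29) fell, and the list median was 0.80. The part of neuron content in the Slc12a5 differences was not tested.

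**Figure D2:**
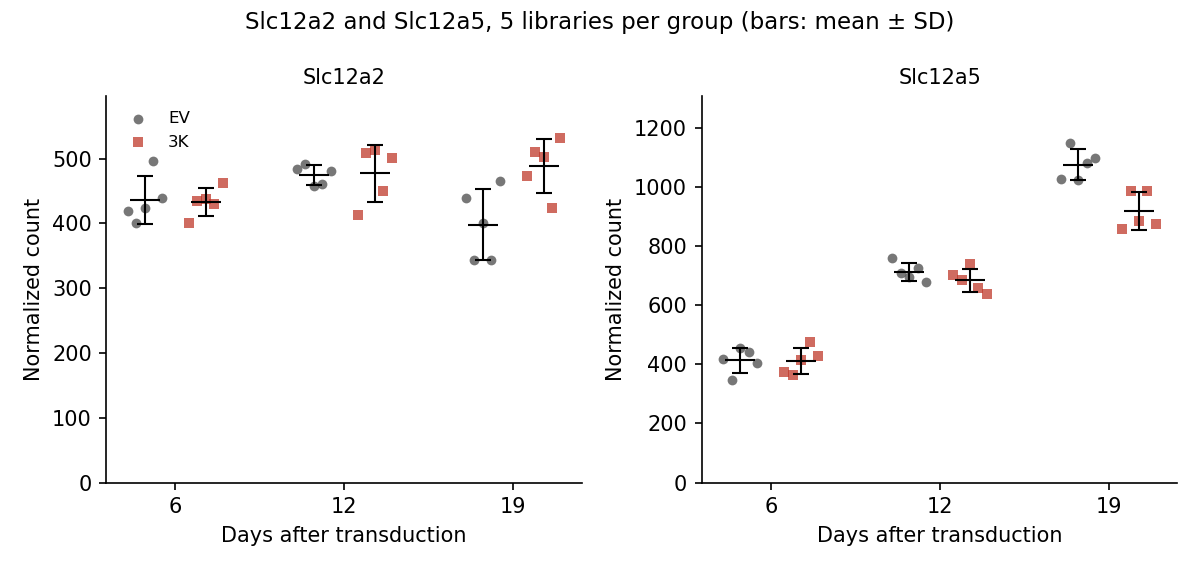
Normalized counts of Slc12a2 (left) and Slc12a5 (right) against days after transduction, with 1 point per library, EV as circles and 3K as squares, and bars for the mean ± SD of 5 libraries. Slc12a5 rises at each day in both vectors with 3K below EV at day 19, while Slc12a2 at day 19 is spread from 343 to 465 in EV and from 424 to 532 in 3K.

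The balance of exporter to importer was taken in each library as log2 of Slc12a5 over Slc12a2, each with 1 added. Transcript lengths cancel when the ratio is compared between libraries, so only its change is read. Its values in EV were 0.00, -0.21, 0.10, -0.17 and -0.12 at day 6, 0.65, 0.53, 0.60, 0.65 and 0.49 at day 12 and 1.23, 1.74, 1.35, 1.65 and 1.24 at day 19. The 3K values were -0.10, -0.25, -0.08, 0.15 and -0.10 at day 6, 0.77, 0.43, 0.52, 0.55 and 0.35 at day 12 and 0.86, 0.95, 0.82, 1.22 and 0.71 at day 19. All 5 3K libraries of day 19 lay below all 5 EV libraries of that day, but only just, with 1.215 the highest in 3K and 1.225 the lowest in EV, and the vectors overlapped at days 6 and 12. Its mean at day 19 was 0.91 ± 0.19 in 3K against 1.44 ± 0.24 in EV (SD, n = 5 each), a difference of -0.53 (SE 0.14, exact permutation p = 0.0079, adjusted p = 0.012), two-sided and adjusted over 9 comparisons. That is 0.693 times the EV ratio, and 0.0079 is the smallest p that 252 labelings of 5 against 5 can give. At days 6 and 12 the difference was 0.002 (SE 0.086, exact permutation p = 0.98, adjusted p = 0.98) and -0.063 (SE 0.078, exact permutation p = 0.44, adjusted p = 0.49). Since the ratio joins the 2 genes, this is no evidence beyond their own values.

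With age the ratio rose in both vectors. In EV it rose by 0.67 (SE 0.065, exact permutation p = 0.0079, adjusted p = 0.012) from day 6 to day 12 and by 0.85 (SE 0.11, exact permutation p = 0.0079, adjusted p = 0.012) from day 12 to day 19. In 3K the steps were 0.60 (SE 0.10, exact permutation p = 0.0079, adjusted p = 0.012) and 0.39 (SE 0.11, exact permutation p = 0.016, adjusted p = 0.02), and only for the second did the libraries of the days overlap. From day 6 to day 19 the ratio became 2.87 times as high in EV and 1.99 times as high in 3K. Whether the later step differed between the vectors was not tested for the ratio.

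**Figure D3:**
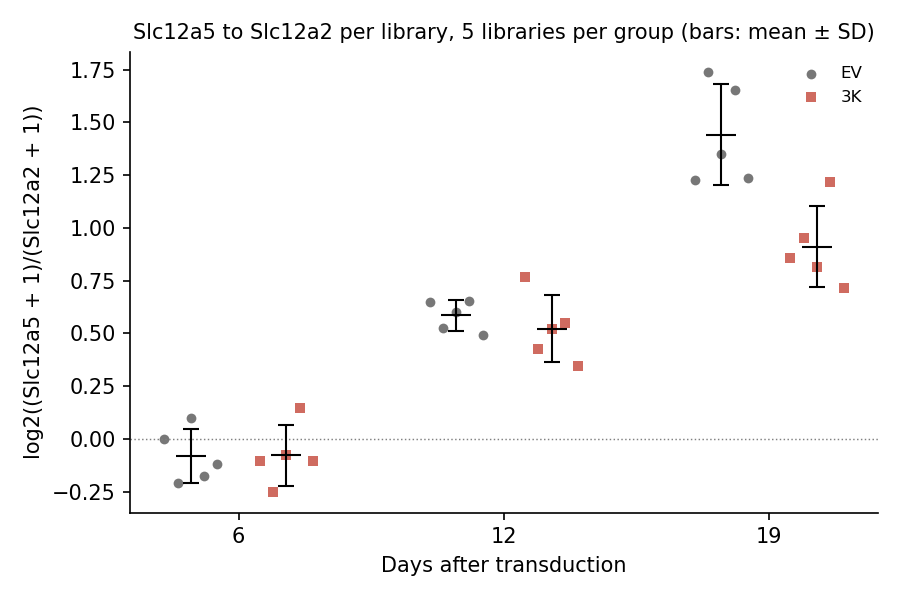
Log2 of the ratio of Slc12a5 to Slc12a2 in each library against days after transduction, EV as circles and 3K as squares, with bars for the mean ± SD of 5 libraries. The vectors lie together at days 6 and 12, and at day 19 the 3K libraries (0.71 to 1.22) lie below the EV libraries (1.23 to 1.74).

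Slc12a7, which codes for KCC4, a second potassium-chloride exporter, had few reads. Its normalized counts ranged from 2.17 to 26.1 and reached 10 in 26 of 30 libraries. Means in EV were 19.5 ± 4.66, 16.2 ± 2.60 and 15 ± 3.23 at days 6, 12 and 19, and in 3K 20.2 ± 5.56, 11.7 ± 7.26 and 10.8 ± 3.89 (SD, n = 5 each). In 3K it fell from day 6 to day 19 by -0.86 on the log2 scale (SE 0.33, limma adjusted p = 0.025), a call that was lost without any 1 of 5 libraries (3K replicates 1 and 2 of day 6 and 2, 4 and 5 of day 19, adjusted p up to 0.062). The fall from day 6 to day 12 in 3K, -0.96 (limma adjusted p = 0.02), was lost in a fit of those groups alone and without 3K replicate 1 or 2 of day 6 or 3 of day 12 (adjusted p up to 0.12, smallest fall -0.52). In EV the day 19 against day 6 comparison gave -0.35 on the log2 scale (SE 0.33, limma adjusted p = 0.36). The difference of the 2 courses was -0.51 on the log2 scale (SE 0.47, limma adjusted p = 0.73), with a 95% interval from -1.4 to 0.41, and a difference was not detectable at this depth. Between vectors at day 12 the difference was -0.68 on the log2 scale (SE 0.33, limma adjusted p = 0.6), where 3K replicate 3 had 2 reads and 3K replicate 4 had 22.

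Clcn2, which codes for the plasma membrane channel ClC-2, was the most uneven of the 9 genes between libraries of a group. In EV its normalized counts were 16, 134, 42.1, 41.2 and 107 at day 6, 92.8, 131, 53.9, 103 and 69.4 at day 12 and 145, 123, 101, 134 and 149 at day 19. The 3K counts were 33.4, 85.6, 97.8, 0 and 134 at day 6, 77.4, 134, 92.4, 83.5 and 37.9 at day 12 and 71.9, 66, 147, 146 and 59 at day 19. Within EV and 3K at day 6 single libraries ran from 16.0 to 134 and from 0 to 134, and groups overlapped at every day. The variance within groups was 21.2 times that of Poisson counting, against a median of 1.67 in 2350 genes of like level, of which 99.3% were below Clcn2. No comparison of Clcn2 passed in the fit of all groups. At day 6 the 3K minus EV difference was -0.70 on the log2 scale (SE 0.76, limma adjusted p = 0.95) while the ratio of means was 1.03. The 3K library with 0 reads (replicate 4) weighs heavily on a log scale. Without that library it was 0.56, and edgeR and DESeq2 on recovered reads gave 0.036 and 0.042. From day 6 to day 19 the mean went from 68.2 ± 50.1 to 130.1 ± 19.3 in EV (SD, n = 5 each), by 1.27 on the log2 scale (SE 0.76, limma adjusted p = 0.14), a comparison that passed in a fit of those groups alone and without 3K replicate 4 of day 6 (adjusted p as low as 0.0079). In 3K the mean went from 70.2 ± 53.4 to 98 ± 44.5 (SD, n = 5 each), by 1.46 on the log2 scale (SE 0.76, limma adjusted p = 0.091). The ratio of these means was only 1.395. This comparison passed without replicate 2, 3 or 5 of day 6 (adjusted p as low as 0.027), in fits that kept replicate 4 with its 0 reads.

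**Figure D4:**
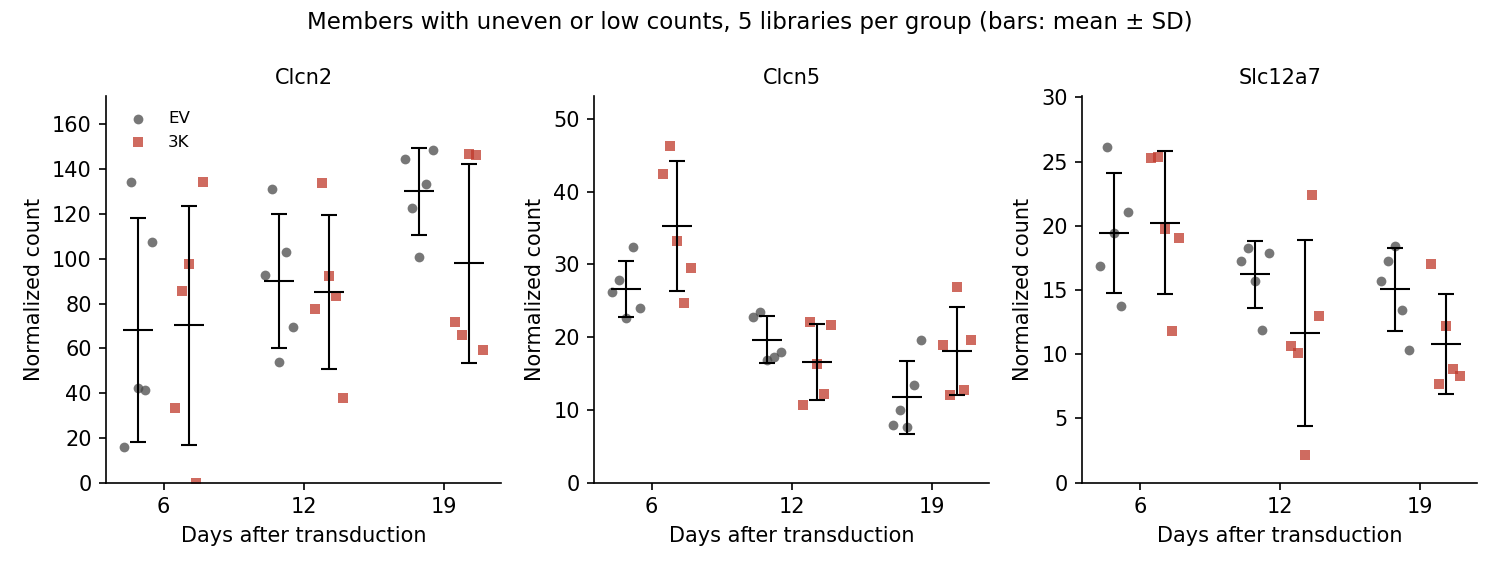
Normalized counts of Clcn2, Clcn5 and Slc12a7 against days after transduction, with 1 point per library, EV as circles and 3K as squares, and bars for the mean ± SD of 5 libraries. Clcn2 spreads from 0 to 149 with wide bars, Clcn5 falls from day 6 to day 19, and Slc12a7 stays at or under 26.1.

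Clcn3, which codes for ClC-3, a chloride-proton exchanger of endosomes and synaptic vesicles, had the smallest adjusted p of the 9 between vectors and was the only one called at 2 days. In EV its normalized counts were 819, 880.2, 823, 898 and 814 at day 6, 876, 789, 879, 847 and 805 at day 12 and 962, 846, 950.2, 855 and 994 at day 19. In 3K they were 913, 943, 894, 809 and 889.9 at day 6, 959.8, 1032, 969, 1018 and 939 at day 12 and 1197, 1130.2, 1182, 1173 and 1230.0 at day 19. The vectors overlapped at day 6, whereas at days 12 and 19 every 3K library lay above every EV library. Means at day 12 were 984 ± 40 in 3K against 839 ± 41.1 in EV (SD, n = 5 each), a difference of 0.23 on the log2 scale (SE 0.048, limma adjusted p = 0.013). Those at day 19 were 1182 ± 36.4 in 3K against 922 ± 66.7 in EV (SD, n = 5 each), a difference of 0.36 on the log2 scale (SE 0.048, limma adjusted p = 3.4e-06). This was 1.28 times the EV mean. All 5 3K libraries lay above the EV mean at both days.

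At day 6 the difference of Clcn3 was 0.071 on the log2 scale (SE 0.048, limma adjusted p = 0.86). The effect at day 19 exceeded that at day 6 by 0.29 on the log2 scale (SE 0.067, limma adjusted p = 0.018), and that at day 12 by 0.13 on the log2 scale (SE 0.067, limma adjusted p = 0.55), of which the first passed. Within EV the gene gained only 0.12 (limma adjusted p = 0.028) from day 6 to day 19, whereas within 3K it gained 0.41 (limma adjusted p = 5.9e-09). The order of the means was EV at days 12 and 6, 3K at day 6, EV at day 19, 3K at day 12 and 3K at day 19, with overlap of libraries between every pair of neighbours except the last. The day 19 difference held under every alternative run, from 0.30 to 0.39 with adjusted p at most 0.00076. The day 12 call was lost without EV replicate 2 or 3K replicate 2 of that day (adjusted p up to 0.08, difference at least 0.21). The day 19 against day 6 call was lost in a fit of those 4 groups alone (adjusted p = 0.056). The rise in EV was lost under 4 other settings and without any 1 of 6 libraries (EV replicates 1, 3 and 5 of days 6 and 19), with adjusted p up to 0.37 and a smallest difference of 0.047.

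**Figure D5:**
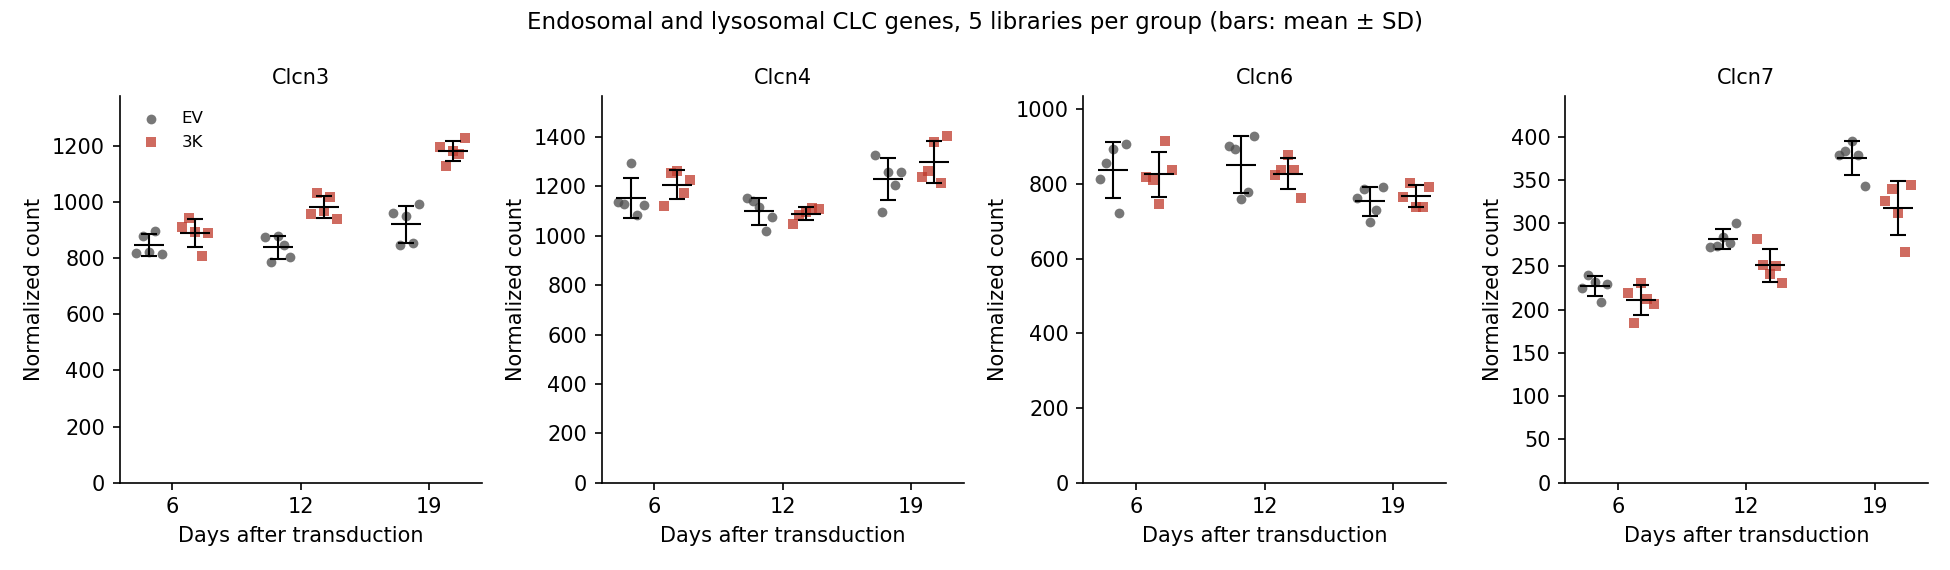
Normalized counts of Clcn3, Clcn4, Clcn6 and Clcn7 against days after transduction, with 1 point per library, EV as circles and 3K as squares, and bars for the mean ± SD of 5 libraries. Clcn3 of 3K lies above EV at days 12 and 19, Clcn7 rises in both vectors with 3K lower at day 19, and Clcn4 and Clcn6 overlap between vectors at every day.

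Clcn4, which codes for ClC-4, an endosomal exchanger known to pair with ClC-3, gave no call between the vectors. In EV its normalized counts were 1137, 1130.3, 1296, 1084 and 1123 at day 6, 1153, 1139, 1116, 1018 and 1075 at day 12 and 1328, 1096, 1257, 1206 and 1259 at day 19. The 3K counts were 1120.5, 1255, 1262, 1172 and 1227 at day 6, 1049.7, 1084, 1098, 1112 and 1108 at day 12 and 1237, 1261, 1379.7, 1215 and 1403 at day 19. The vectors overlapped at each day, and at day 6 EV replicate 3 stood above the other EV libraries. The 3K minus EV differences were 0.066 (limma adjusted p = 0.9) at day 6, -0.012 (limma adjusted p = 0.99) at day 12 and 0.08 (limma adjusted p = 0.42) at day 19, the last with a 95% interval from -0.02 to 0.18. In 3K the gene fell from day 6 to day 12 by -0.15 on the log2 scale (SE 0.051, limma adjusted p = 0.022) and rose from day 12 to day 19 by 0.25 on the log2 scale (SE 0.051, limma adjusted p = 0.00016), with no overlap at either step. In EV it rose from day 12 to day 19 by 0.16 on the log2 scale (SE 0.051, limma adjusted p = 0.012). That rise was lost with libraries scaled to equal totals (adjusted p = 0.068). The 3K fall was lost without 3K replicate 2 or 3 of day 6 or replicate 1 of day 12 (adjusted p up to 0.058).

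Clcn5, which codes for ClC-5, the endosomal exchanger best known from the kidney tubule, had few reads and fell with culture age. In EV its normalized counts were 26.2, 27.9, 22.7, 32.5 and 24 at day 6, 22.8, 23.5, 16.8, 17.3 and 17.9 at day 12 and 7.87, 10, 7.58, 13.4 and 19.6 at day 19. In 3K they were 42.4, 46.3, 33.3, 24.7 and 29.6 at day 6, 10.7, 22.1, 16.3, 12.2 and 21.6 at day 12 and 18.9, 12, 26.9, 12.8 and 19.7 at day 19. Every EV library of day 19 lay below every EV library of day 6, and in 3K only the highest library of day 19 reached into the range of day 6. The mean fell in EV from 26.6 ± 3.82 to 11.7 ± 5.01 (SD, n = 5 each), by -1.19 on the log2 scale (SE 0.25, limma adjusted p = 9.3e-05). In 3K it fell from 35.3 ± 8.95 to 18.1 ± 6.04 (SD, n = 5 each), by -0.95 on the log2 scale (SE 0.25, limma adjusted p = 0.0013). The 3K step from day 6 to day 12 was -1.06 (limma adjusted p = 0.00079), with 0.11 (limma adjusted p = 0.75) from day 12 to day 19. In EV the step from day 12 to day 19 was -0.77 (limma adjusted p = 0.011). Between vectors at day 19 the difference was 0.61 on the log2 scale (SE 0.25, limma adjusted p = 0.14), which did not pass, with all 5 3K libraries above the EV mean. That difference passed without EV replicate 5 (adjusted p = 0.039), which had the highest EV count of that day.

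Clcn6, which codes for ClC-6, the late endosomal exchanger found mostly in neurons, varied little. Its normalized counts ranged from 699 to 928, with means of 839 ± 75, 852 ± 77.2 and 754 ± 39.4 in EV and 826 ± 60.5, 828 ± 42.3 and 767 ± 29.6 in 3K at days 6, 12 and 19 (SD, n = 5 each). The vectors overlapped at every day, and the differences were -0.020, -0.037 and 0.026 on the log2 scale, with limma adjusted p of at least 0.88 and a 95% interval at day 19 from -0.09 to 0.15. In EV it fell from day 6 to day 19 by -0.15 on the log2 scale (SE 0.061, limma adjusted p = 0.033), and in 3K the change was -0.10 (limma adjusted p = 0.14). The fall in EV was lost in a fit of those groups alone, with the mitochondrial share as a covariate and without any 1 of 5 libraries (EV replicates 2, 3 and 5 of day 6 and 3 and 4 of day 19), with adjusted p up to 0.26 and a smallest fall of -0.082.

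Clcn7, which codes for ClC-7, the lysosomal exchanger that needs the subunit OSTM1, rose with age and was lower in 3K at day 19. In EV its normalized counts were 225, 239.7, 232, 209 and 230.2 at day 6, 272, 274, 284, 277 and 300.0 at day 12 and 379, 384, 395, 379 and 343 at day 19. The 3K counts were 219, 185, 231, 213 and 207 at day 6, 282, 252, 241, 250.5 and 231 at day 12 and 326, 339, 312, 266 and 345 at day 19. The 3 days did not overlap in EV, and at day 19 only 3K replicate 5 exceeded the lowest EV library, replicate 5. The mean rose in EV from 227 ± 11.6 to 376 ± 19.6 (SD, n = 5 each), by 0.72 on the log2 scale (SE 0.067, limma adjusted p = 4.3e-11), a ratio of means of 1.65. In 3K it rose from 211 ± 17 to 318 ± 31.4 (SD, n = 5 each), by 0.59 on the log2 scale (SE 0.067, limma adjusted p = 4.6e-09), a ratio of 1.505. The 3K minus EV difference was -0.11 (limma adjusted p = 0.84) at day 6, -0.17 (limma adjusted p = 0.44) at day 12 and -0.25 on the log2 scale (SE 0.067, limma adjusted p = 0.018) at day 19. All 5 3K libraries of day 19 lay below the EV mean. The effect at day 19 minus that at day 6 was -0.14 on the log2 scale (SE 0.095, limma adjusted p = 0.6), which did not pass.

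The day 19 call of Clcn7 was lost in a fit of those groups alone, with the mitochondrial share as a covariate (adjusted p up to 0.062) and without 3K replicate 4, the lowest 3K library (adjusted p = 0.069, difference -0.18). Astrocyte markers also moved with both contrasts. From day 6 to day 19 in EV 7 of 9 rose and 0 fell, beside 32.9% and 32.2% of all genes. Their summed normalized counts ran from 11740 to 12820 at day 6 and from 36500 to 41160 at day 19. At day 19 in 3K 3 of 9 were lower, Aldoc by -0.52 (limma adjusted p = 1.8e-07), Aldh1l1 by -0.35 (adjusted p = 0.041) and S100b by -0.22 (adjusted p = 0.013). The other 6 did not pass, and Gfap among them had the widest difference of the list, 0.62 (limma adjusted p = 0.063), with a mean of 6588 in 3K and 4555 in EV. The list median was -0.065. The sum there ranged from 34050 to 40110. Their part in the Clcn7 differences was not tested. The 6 progenitor markers gave 2 higher in 3K at day 19, Vim by 0.76 (adjusted p = 2.3e-05) and Nes by 0.48 (adjusted p = 0.0089). The other 4 did not pass, with differences of -0.33 for Mki67, -0.12 for Pax6, -0.067 for Top2a and 0.001 for Sox2 (limma adjusted p of at least 0.65) and a list median of -0.033. Their sums ran from 1450 to 2058 in 3K and from 1318 to 1701 in EV, and their part in the Slc12a2 and Clcn3 differences was not tested. Of 9 oligodendrocyte lineage markers, 0 passed between vectors at any day, and the sum of 7 microglia markers was at most 18.7 in any library.

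Over the 30 libraries, Slc12a5 and Clcn7 had the most similar courses among the 9 genes, with r = 0.888 on the log2 scale, and both ran opposite to Clcn5, with r = -0.78 and -0.77. Slc12a2 and Slc12a5 had r = 0.024, and Clcn3 and Clcn4 had r = 0.506. These values describe 30 libraries of 6 groups that share their age steps, and the points are not independent. Among 9796 genes whose mean normalized count was 50 or more, the 3 whose course was most like that of Slc12a5 were Sirpa (r = 0.991), Sparcl1 (r = 0.989) and Syt17 (r = 0.987). For Clcn7 they were Slco1c1 (r = 0.94), Acsbg1 (r = 0.938) and Ndrg2 (r = 0.937). For Clcn3 they were Arid5a (r = 0.866), Rgs4 (r = 0.849) and Snx1 (r = 0.826). For Slc12a2 the first was the gene ENSRNOG00000017952, whose symbol the table lists as a number (r = 0.762), followed by Prps2 (r = 0.728) and Jmjd1c (r = 0.71). Clcn5 was closest to Cdh6 (r = 0.844), Trove2 (r = 0.824) and Plxna3 (r = 0.812). Clcn4 was closest to Prickle1 (r = 0.816), Mfsd14b (r = 0.811) and Ddx3 (r = 0.809). The closest genes reached less for Clcn6 (Dhx29 at 0.709, Arcn1 at 0.697 and Rad23b at 0.693), for Clcn2 (Kcnip2 at 0.659, Pex10 at 0.645 and Grhpr at 0.636) and for Slc12a7 (LOC102556347 at 0.658, Mrm3 at 0.658 and Zfp260 at 0.652).

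The counts of related genes that follow stand beside the same shares of all genes, 0.225%, 0.434% and 7.86% called between vectors at days 6, 12 and 19. Counts with age in EV are from day 6 to day 19, where 32.9% of all genes rose and 32.2% fell. Of the other SLC12 genes, Slc12a4 (KCC1) and Slc12a9 gave no call between vectors at any day. In EV both rose from day 6 to day 19, by 0.78 and 0.79 on the log2 scale (limma adjusted p = 1e-08 and 2.9e-12). Slc12a1 and Slc12a3, the kidney transporters NKCC2 and NCC, had means of 0.504 and 0.0916. Of 10 genes of the WNK-SPAK-OSR1 pathway 9 were tested, and 0 were called between vectors at any day, while 3 rose and 5 fell with age in EV. The largest age changes were in Wnk3 (-0.84, adjusted p = 1.7e-06), Klhl3, an adaptor that marks WNK kinases for degradation (0.65, adjusted p = 0.022), Oxsr1, which codes for OSR1 (-0.55, adjusted p = 6.3e-07), and Wnk1 (0.37, adjusted p = 0.0019).

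Of 11 regulators of KCC2, all were tested, and 1, 1 and 2 were higher in 3K at days 6, 12 and 19, with 0 lower at any day. Bdnf, the neurotrophin that acts through TrkB, was higher in 3K at all 3 days, by 0.59 (limma adjusted p = 0.0012), 0.49 (adjusted p = 0.0077) and 1.07 (adjusted p = 2.8e-09). At day 19 its mean normalized count was 634 ± 95.7 in 3K and 300.3 ± 30.2 in EV (SD, n = 5 each). Neto2, an auxiliary subunit that binds KCC2, was higher in 3K at day 19 by 0.24 (adjusted p = 0.0077). With age in EV 5 of the 11 rose and 4 fell. The largest changes were in Egr4, a transcription factor known to act on Slc12a5 (4.41, adjusted p = 4.1e-18), Prkcd (1.785, adjusted p = 4.7e-06), Bdnf (1.41, adjusted p = 2.3e-14) and Neto2 (-1.19, adjusted p = 4.7e-18). The median difference of the list at day 19 was -0.030 and that of all genes tested -0.0031.

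Of 9 CLC relatives and partner subunits 5 were tested. Ostm1, the subunit of ClC-7, was lower in 3K at day 19, with 506 ± 37.8 against 584 ± 6.18 in EV (SD, n = 5 each), by -0.21 (limma adjusted p = 0.016), as Clcn7 was. Tmem9b, of the TMEM9 family that binds the endosomal exchangers, was lower by -0.165 (adjusted p = 0.0048). With age in EV all 5 rose. The largest changes were in Mlc1 (1.53, adjusted p = 5.8e-19), Hepacam, which codes for the ClC-2 partner GlialCAM (0.90, adjusted p = 4.3e-13), Ostm1 (0.41, adjusted p = 1.3e-07) and Tmem9b (0.29, adjusted p = 6.9e-08). Bsnd, the subunit of the kidney ClC-K channels, was at 0 in all 30 libraries. Of 17 V-ATPase subunits tested 16 rose and 0 fell with age in EV, with a list median of 0.44. The largest rises were in Atp6v1g2 (1.11, adjusted p = 1.3e-18), Atp6v1b2 (0.89, adjusted p = 2.4e-19), Atp6v1c1 (0.84, adjusted p = 3.8e-15) and Atp6v1d (0.83, adjusted p = 3e-19). At day 19, 2 were lower in 3K, Atp6v0d1 by -0.17 (adjusted p = 0.00067) and Atp6v1b2 by -0.19 (adjusted p = 0.0013), and 0 were higher, with a list median of -0.064.

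The remaining lists were mixed. Of 15 other chloride channel genes tested, 0 were called at days 6 and 12, and 4 were higher and 2 lower in 3K at day 19. Higher were Clic1 (0.985, limma adjusted p = 0.012), Ano6, a calcium-activated scramblase and channel (0.65, adjusted p = 0.0016), Lrrc8c, a subunit of the volume-regulated anion channel (0.39, adjusted p = 0.0061), and Ano10 (0.29, adjusted p = 0.0046). Lower were Best1, the calcium-activated channel bestrophin 1 (-0.40, adjusted p = 0.0016), and Ttyh3 (-0.29, adjusted p = 5e-05). With age in EV 8 of the 15 rose and 3 fell. The largest changes were in Ano2 (2.17, adjusted p = 1.8e-06), Best1 (1.43, adjusted p = 3.1e-16), Ttyh1 (1.33, adjusted p = 1.1e-20) and Ttyh2 (0.90, adjusted p = 1.2e-08). A list of SLC4 and SLC26 transporters held chloride-bicarbonate exchangers such as Slc4a2 and Slc4a3 together with the sodium-bicarbonate cotransporters Slc4a4 and Slc4a7, which do not exchange chloride. Of its 8 genes tested, 0 were called between vectors at any day, and 4 rose and 1 fell with age. The largest changes were in Slc4a4 (1.94, adjusted p = 1e-14), Slc4a2 (1.05, adjusted p = 8e-11), Slc4a10 (0.72, adjusted p = 1.3e-13) and Slc4a7 (-0.495, adjusted p = 0.0032).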

How the data were processed

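The deposited signal values are normalized counts, for which the authors divided each gene's RSEM read count by the DESeq2 size factor of its library. STAR 2.5.2b, RSEM 1.2.31, FastQC, DESeq2 and build Rnor_6.0 are named in the submitters' processing notes. In each library 100% of values were whole reads over 1 factor, within 0.01 of a read, so reads were recovered for the count tests, and factors ranged from 0.8009 to 1.1843. Reads come from amplified cDNA and are no independent count of molecules.

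Tests were run for genes that reached a normalized count of 10 in 5 or more libraries, on log2(normalized count + 1) with limma 3.58.1 (R 4.3.3), with 1 mean per group, a trend, two-sided tests and Benjamini-Hochberg adjustment over all genes tested at 0.05. The added 1 shrinks the log2 differences of low genes, and a difference of mean log2 values can lie on either side of the log2 ratio of means. The ratio of Slc12a5 to Slc12a2 was tested by exact permutation of libraries, adjusted over 9 comparisons. Alternatives were edgeR 4.0.16, DESeq2 1.42.0, pseudocounts of 0.5 and 5, no filter, a filter of 50, equal totals, equal upper quartiles, a replicate block, the compared groups alone, the mitochondrial share as a covariate, and leaving out each of 30 libraries. The code was tested on simulated data. The members, lists, markers and alternatives were chosen with earlier results of these data known. Named genes were the 9 members, list genes called between vectors at any day, the 4 of each list with the largest change from day 6 to day 19 in EV, and the 3 genes most like each member. Of the lists, Atp6v0a2, Pac1, Pacc1, Itgam and Pecam1 matched no row, and Tmem206 is an older symbol of Pacc1. Tables and plots used Python 3.11.15 with scipy 1.17.1, numpy 2.4.6, matplotlib 3.10.9 and pandas 2.3.3. Promoter windows are RefSeq's on GRCr8, and no coordinates on Rnor_6.0 and no level per transcript length are given here. Not every gene of the related lists is reported here.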

Additional observations from a re-analysis of the deposited data

Results flagged for a closer look

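Of 60 groups of 5 values checked (9 genes and the ratio in 6 groups), 1 held a library far from the others, where chance alone would give about 1 in 20. It was Clcn4 in EV at day 6, where replicate 3 had a normalized count of 1295.6 and the other 4 ranged from 1083.7 to 1136.5, with a gap of 0.751 of the group's range against a critical value of 0.71. Among the tests of the 3K effect between days, Clcn3 differed between day 19 and day 6, by 0.291 on the log2 scale (SE 0.067, limma adjusted p = 0.018).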

How the results depend on the processing

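Of the 12 counts of members called, all stayed within 1.5 times under edgeR, DESeq2, equal totals, equal upper quartiles, both pseudocounts, no filter, the filter of 50 and the replicate block. In a fit of the compared groups alone, the count at day 19 fell from 4 to 2 and that of the 3K effect at day 19 against day 6 from 1 to 0. With the mitochondrial share as a covariate, the count at day 19 became 2 and that of EV from day 6 to day 19 fell from 5 to 3. Leaving out single libraries gave 0 to 1 members at day 12, 2 to 4 at day 19 (2 without EV replicate 4) and 3 to 6 for EV from day 6 to day 19. The cause was not tested.

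With replicate numbers as a replicate block in the ratio of Slc12a5 to Slc12a2, 5 pairs cannot give an exact permutation p under 0.0625, so the 7 differences called (-0.529 between vectors at day 19, 0.665, 0.855 and 1.52 in EV and 0.6, 0.389 and 0.989 in 3K) had adjusted p = 0.08 by construction. Same-numbered 3K and EV libraries deviated together with r from -0.121 to 0.192. At day 19 replicates 2, 4 and 5 had 0.145, 0.161 and 0.192, and replicates 1 and 3 had -0.012 and 0.061. The highest r with a library of another number was 0.077, 0.043 and 0.027 for replicates 2, 4 and 5, and 0.09 and 0.067 for replicates 1 and 3. The numbers were not taken as pairs, but these values do not settle whether they were pairs at day 19. In limma the block added 1 call over 73 single-gene results, Slc12a2 in 3K from day 6 to day 19, and lost 0.

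Signs turned only for differences that were not called. With the mitochondrial covariate Slc12a5, Slc12a7 and Clcn6 at day 6 became 0.038, -0.009 and 0.009, Slc12a2 at day 12 became -0.012, and the Clcn2 effect at day 19 against day 6 became -0.009. For Clcn2, edgeR and DESeq2 gave 0.036 and 0.042 at day 6, and -0.46 and -0.451 for that effect, which was -0.18 with a pseudocount of 5. Without single libraries, ranges at day 6 were -0.038 to 0.04 (Slc12a2), -0.067 to 0.036 (Slc12a5), -0.072 to 0.21 (Slc12a7), -1.21 to 0.56 (Clcn2), -0.073 to 0.015 (Clcn6) and -0.054 to 0.047 (the ratio). At day 12 they were -0.024 to 0.055 (Slc12a2), -0.313 to 0.135 (Clcn2) and -0.04 to 0.005 (Clcn4), and at day 19 -0.001 to 0.044 (Clcn6). For the effect at day 19 against day 6 they were -1.067 to 0.703 (Clcn2) and -0.028 to 0.043 (Clcn4). Depth limits Slc12a7 and Clcn5, which had 2 to 30 and 7 to 53 reads per library.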
